A study of Caenorhabditis elegans with 6 samples.

Results

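The 7SL RNA is the scaffold of the signal recognition particle. It is transcribed by RNA polymerase III (Pol III), and in *Caenorhabditis elegans* several genes named *srpr* encode it. The copies described here are B0285.12 (*srpr-1.2*), R144.15 (*srpr-2.2*) and ZC155.8 (*srpr-2.1*), which are 3 of the 2526 short transcripts in the count table. They were taken by their names and not by their counts. The annotation of the worm genome lists 5 *srpr* genes, and the other 2, *srpr-1.1* (B0284.6) and *srpr-3* (F44A2.8), were not analysed here.

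The particle binds a signal sequence as it emerges from the ribosome, slows elongation, and brings the ribosome to its receptor on the membrane of the endoplasmic reticulum. In this way secreted and membrane proteins enter the secretory pathway while they are still being made. The 7SL RNA holds the protein subunits in place and, through its Alu and S domains, takes part in elongation arrest and in signal sequence recognition. Other stable Pol III products include tRNAs and the 5S rRNA of the large ribosomal subunit. Further ones are RNase P RNA, which trims the 5′ ends of tRNA precursors, and RNase MRP RNA, which acts in the processing of rRNA precursors. Y RNA, a partner of the Ro protein, is another.

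Short RNA was sequenced from whole worms in 2 groups of 3 samples. The vector control worms ate bacteria with an empty RNAi plasmid, and the *rpc-1* RNAi worms ate bacteria that target *rpc-1*, which encodes the largest Pol III subunit. The wild-type strain of the study was Bristol N2. Worms of both groups were moved to the RNAi bacteria as L4 larvae and were collected on day 2 of adulthood. They were kept as in the lifespan assays of the study, whose plates held fluorodeoxyuridine (FuDR) except where it specified otherwise. The RNA was size selected and demethylated before library preparation. The study describes the treatment as giving a partial knockdown. Since whole worms were lysed, fewer cells with an RNA and less of it per cell cannot be told apart. The *rpc-1* mRNA and marker mRNAs of worm tissues are longer than these short transcripts, so neither the knockdown nor the labelled tissue was checked from these data. The sources used here do not say whether replicates came from separate cultures, and p-values measure the spread between these samples only.

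All 3 genes lie on chromosome III of WBcel235, and each is a single exon of 299 bases, so counts can be compared between the copies without a correction for length. B0285.12 runs from 4369468 to 4369766 on the plus strand, in an intron of *ckb-2* on the same strand. R144.15 runs from 5031410 to 5031708 on the minus strand, in an intron of *klp-6* on the opposite strand. It shares 39 bases with the ncRNA R144.16 on its own strand, which had 1 count in *rpc-1* RNAi replicate 2 and 0 in the other samples. ZC155.8 runs from 5211220 to 5211518 on the plus strand and overlaps no other annotated transcript. The genes *srpr-1.1* (chromosome III, 4378909 to 4379206) and *srpr-3* (chromosome V, 9293334 to 9293632) are 298 and 299 bases long. Counts were estimated with Salmon, which apportions a read that matches several similar transcripts among them. The count of a single 7SL copy therefore depends on that division, while the sum of the copies does not depend on how reads were divided among them. Whether any copy also carries reads from the genes not analysed here was not tested.

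The 6 samples held 9362216 to 21685824 counts on short transcripts, the lowest being vector control replicate 2. All copies were well covered. Their rank by count among the 2526 transcripts ran from 50 to 133 over the samples, and the Wilson interval of each share given below was narrower than the SD between the replicates of its group. Since PCR duplicates may be among the reads, the intervals given with shares cover counting error only. RNA under 200 nucleotides was selected, and the annotated copies are longer than that. Other transcripts longer than 200 bases took 1.26% to 2.12% of counts in controls and 1.36% to 2.65% in *rpc-1* RNAi. The groups overlapped, but the share was higher than in the same-numbered control for each of the 3 numbers, by 1.08, 1.06 and 1.25 times. Counts do not show whether the 7SL reads came from whole molecules or from fragments, and the part of size selection in the levels was not tested.

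The first question was whether the level of 7SL RNA, relative to the other short transcripts, differed after *rpc-1* RNAi. The counts are relative and give no amount per worm. Their make-up differed between samples, with nuclear tRNAs at 9.87%, 1.34% and 3.60% of counts in control replicates 1, 2 and 3. In the RNAi replicates these were 1.12%, 0.493% and 0.351%. ZC155.8 was the most abundant copy, followed by R144.15 and then B0285.12, in 6 of 6 samples. The mean summed level differed between the groups by less than the SD of the RNAi replicates, and no copy passed the test. The summed count of the copies was 58922, 33349 and 60872 in vector control replicates 1, 2 and 3. It was 80534, 57393 and 81219 in *rpc-1* RNAi replicates 1, 2 and 3. As a share of all counts, 7SL RNA took 0.325% of control replicate 1 (95% Wilson interval 0.323 to 0.328), 0.356% of replicate 2 (0.352 to 0.360) and 0.330% of replicate 3 (0.327 to 0.332). The corresponding RNAi samples had 0.415% (0.413 to 0.418), 0.287% (0.284 to 0.289) and 0.375% (0.372 to 0.377). The control samples thus lay between the lowest and the highest RNAi sample, and RNAi replicate 2 was the lowest of all 6.

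For controls the mean share was 0.337% ± 0.0167 (SD, n = 3) and for RNAi it was 0.359% ± 0.0657 (SD, n = 3), a difference of 0.0218 percentage points that was smaller than the spread between the RNAi replicates (exact two-sided permutation p 0.60, where 3 samples against 3 cannot go below 0.10). Against the same-numbered control, RNAi was 1.28 times as high for number 1, 0.805 times for number 2 and 1.14 times for number 3. Counts divided by DESeq2 size factors, which are called normalised counts here, averaged 59737 ± 5931 (SD, n = 3) for controls and 56791 ± 12682 (SD, n = 3) for RNAi. On this scale the mean was lower in RNAi, while as a share of counts it was higher. The difference in share was also below 0 with tRNAs left out of the denominator (-0.00262 percentage points) and without *rpc-1* RNAi replicate 1 (-0.00644). It was 0.107 percentage points with rRNAs left out of the denominator and 0.0579 without *rpc-1* RNAi replicate 2. In a DESeq2 fit with the 3 copies replaced by their sum, the log2 fold change was -0.073 ± 0.61 (SE, adjusted p 0.992). Its 95% interval ran from 0.414-fold to 2.18-fold, so changes within those limits could not be told from none in that fit. Adding a term for the pairing of same-numbered samples narrowed the DESeq2 interval to between 0.617-fold and 1.425-fold. A group-only DESeq2 fit with a minimum mean count of 10 gave 0.566-fold to 1.557-fold. Both of these narrower intervals also included no change. The summed normalised counts did not themselves move together by number. RNAi minus same-numbered control was 12197, -22903 and 1869 for numbers 1, 2 and 3 (SD 18039). The narrower interval with pairing therefore does not show that 7SL levels followed the replicate numbers.

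B0285.12 had the lowest level of the copies and the highest mean in RNAi relative to control. Its normalised counts were 8450, 15114 and 9719 in vector control replicates 1, 2 and 3, and 18559, 11760 and 16917 in the RNAi replicates. RNAi replicates 1 and 3 were above every control, but RNAi replicate 2 was below control replicate 2, so the groups overlapped. The means were 11094 ± 3539 (SD, n = 3) and 15745 ± 3548 (SD, n = 3). DESeq2 gave a log2 fold change of 0.51 ± 0.63 (SE, adjusted p 0.975), with a 95% interval from 0.600-fold to 3.36-fold. The estimate depended on single samples. Leaving out vector control replicate 2 gave 0.81 (DESeq2 adjusted p 0.594), and leaving out control replicate 1 gave 0.33 (DESeq2 adjusted p 0.934).

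R144.15 had normalised counts of 18990, 22934 and 20131 in the controls and 20866, 14346 and 17403 in RNAi. RNAi replicates 2 and 3 were below every control, and RNAi replicate 1 lay among the controls. Its log2 fold change was -0.24 ± 0.59 (SE, DESeq2 adjusted p 0.990), with a 95% interval from 0.382-fold to 1.88-fold. Without RNAi replicate 1 it was -0.39, without RNAi replicate 2 it was -0.13, and without control replicate 2 it was -0.14 (DESeq2 adjusted p 0.612, 0.988 and 0.950). ZC155.8 had 29336, 28517 and 26019 in the controls and 29547, 17557 and 23418 in RNAi. Here too RNAi replicates 2 and 3 were below every control, while RNAi replicate 1 was the highest of the 6 samples. Its log2 fold change was -0.25 ± 0.60 (SE, DESeq2 adjusted p 0.990), with a 95% interval from 0.372-fold to 1.90-fold. Leaving out RNAi replicate 1 gave -0.46 and leaving out RNAi replicate 2 gave -0.092 (DESeq2 adjusted p 0.552 and 0.988). In controls the ranges of the 3 copies did not overlap each other. In RNAi the range of each copy overlapped those of both others.

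**Figure D1:**
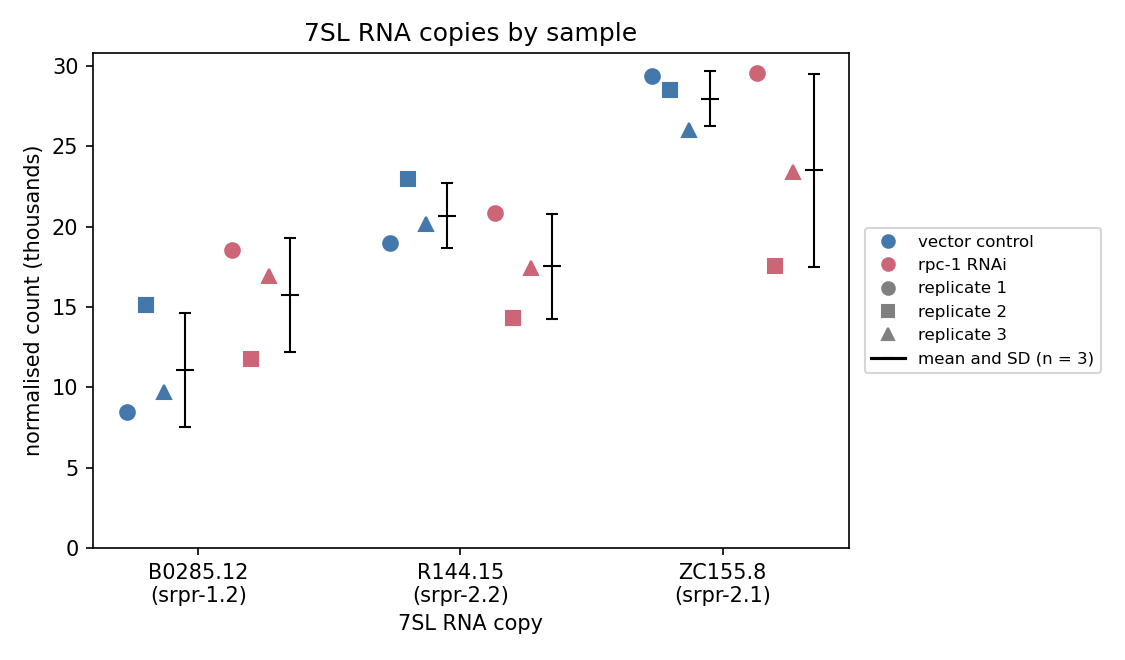
Normalised counts (vertical axis, in units of 1000) of each 7SL RNA copy (horizontal axis) in the 3 vector control and 3 *rpc-1* RNAi samples; points are samples, shapes are replicate numbers, and bars are the mean and SD. The groups overlap for every copy, and *rpc-1* RNAi replicate 2 is the lowest RNAi sample for each of them.

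The groups did not overlap for 0 of the 3 copies, where normalised counts did not overlap for 21.5% of the 817 transcripts that averaged 10 or more. DESeq2 put 0 of the 3 copies past a 10% false discovery rate (FDR), with 0 at an unadjusted p under 0.05. Of all transcripts in the series, 7.29% of the 1083 transcripts with an adjusted p were past it. The quasi-likelihood test of edgeR likewise called 0 of the 3, with 0 at an unadjusted p under 0.05, against 7.16% of 796 transcripts. Across the 14 fits, counting the alternatives, the adjusted p ran from 0.382 to 0.997 for B0285.12, from 0.612 to 0.997 for R144.15 and from 0.544 to 0.997 for ZC155.8. The direction of each copy was the same in all 14 fits, higher for B0285.12 and lower for R144.15 and ZC155.8. The direction of the sum was not. Its log2 fold change was 0.090 with size factors from total counts.

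**Figure D2:**
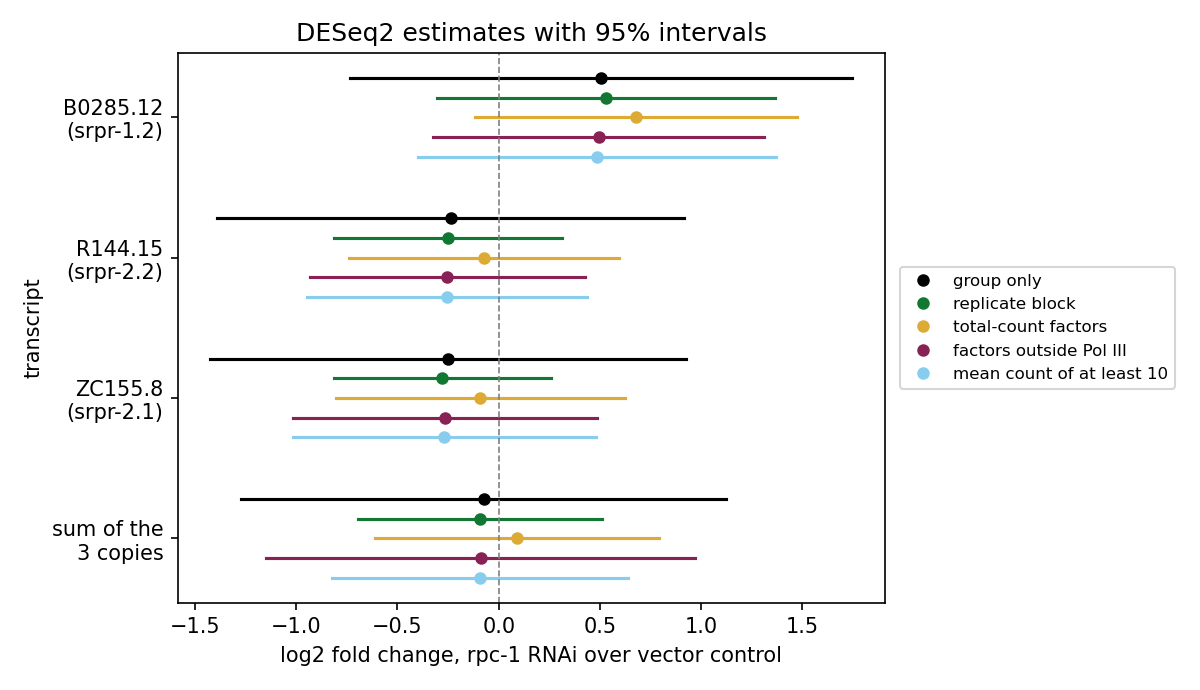
DESeq2 log2 fold changes of *rpc-1* RNAi over vector control (horizontal axis) with 95% Wald intervals (bars) for the 3 copies and their sum (vertical axis), in the fit with the group only and in 4 alternatives. Every interval includes 0, and the point for the sum changes side with total-count size factors.

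The width of these intervals was not set by the 7SL replicates alone. DESeq2 moves the dispersion of each transcript, its variance beyond counting error, towards a trend fitted over all transcripts. For B0285.12 the copy's own estimate was 0.0761, the trend was 0.615 and the value used was 0.289. R144.15 had an own estimate of 0.0220 and a used value of 0.249, and ZC155.8 had 0.0325 and 0.259. Among 368 transcripts with a mean normalised count of at least 1000, the median own estimate was 0.254. A lower own estimate than that of R144.15 was found in 2.72% of them, than that of ZC155.8 in 5.71% and than that of B0285.12 in 19.8%.

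Each copy varied less between replicates than the median abundant short RNA, but only ZC155.8 and R144.15 in controls were among the least variable. In vector controls the coefficient of variation (CV, the SD over the mean) of normalised counts was 6.18% for ZC155.8, 9.81% for R144.15 and 31.9% for B0285.12, where the median of 368 transcripts was 49.5%. In *rpc-1* RNAi it was 25.5%, 18.6% and 22.5% for the same copies, where the median of 356 transcripts that were not 0 in all RNAi samples was 44.1%. A lower CV than that of ZC155.8, R144.15 and B0285.12 was found in 0.815%, 2.72% and 26.1% of transcripts in controls. The corresponding shares in RNAi were 27.2%, 16.9% and 22.2%. ZC155.8 and R144.15 were thus more variable in RNAi than in controls, and B0285.12 less. With 3 samples a group these CVs are rough, and the difference in spread between the groups was not tested.

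**Figure D3:**
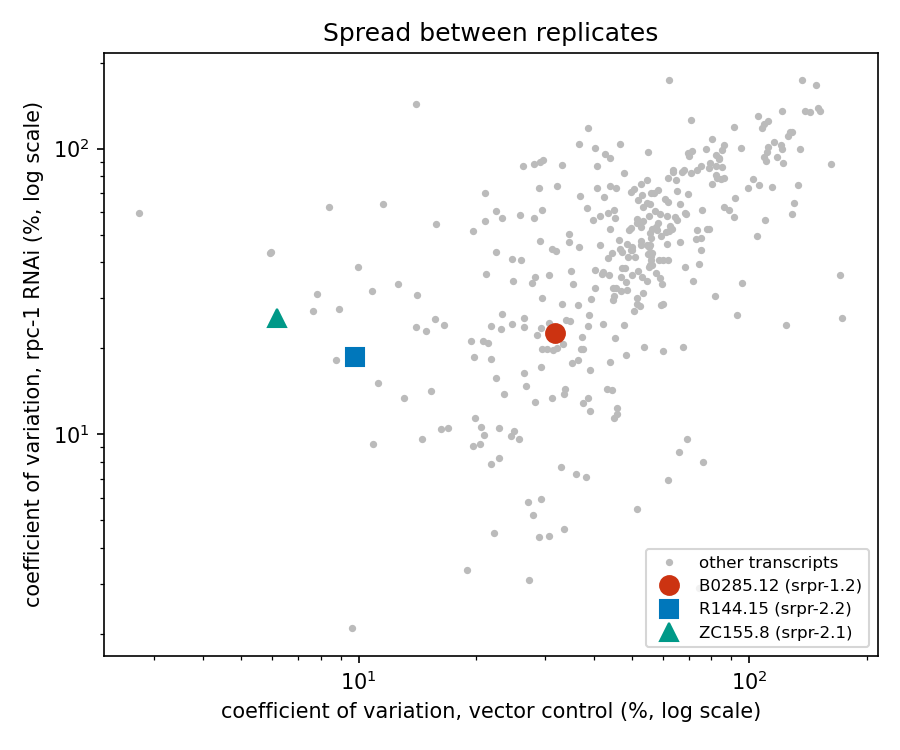
Coefficient of variation between the 3 vector control samples (horizontal axis, log scale, %) and between the 3 *rpc-1* RNAi samples (vertical axis, log scale, %) for 356 transcripts with a mean normalised count of at least 1000; each point is a transcript. ZC155.8 (6.18% in controls) and R144.15 (9.81%) lie far to the left among these transcripts, and B0285.12 (31.9%) lies nearer to the middle.

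The second question was whether worms used the copies in the same proportions. Within each sample the share of a copy in the summed 7SL count does not depend on depth or on size factors. The share of B0285.12 was higher in every RNAi sample than in any control, and the shares of R144.15 and ZC155.8 were lower. Of the 7SL counts of vector control replicate 1, B0285.12 took 14.9% (95% Wilson interval 14.6 to 15.2), and it took 22.7% (22.3 to 23.2) of those of replicate 2 and 17.4% (17.1 to 17.7) of those of replicate 3. In *rpc-1* RNAi it took 26.9% (26.6 to 27.2) in replicate 1, 26.9% (26.6 to 27.3) in replicate 2 and 29.3% (29.0 to 29.6) in replicate 3. The controls were spread more widely than the RNAi samples, and control replicate 2, the sample with the fewest counts, lay nearest to them.

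On average B0285.12 took 18.3% ± 3.99 (SD, n = 3) of the control and 27.7% ± 1.37 (SD, n = 3) of the RNAi 7SL counts, which is 9.39 percentage points higher (exact two-sided permutation p 0.10, the smallest possible, and 0.17 after Benjamini-Hochberg adjustment over the 5 quantities compared in this way). In same-numbered samples it was higher by 12.0, 4.23 and 11.9 percentage points (exact sign-flip p 0.25, the smallest that 3 pairs allow). The difference was 7.66 to 11.6 percentage points when single samples were left out.

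R144.15 took 33.4% (33.1 to 33.8), 34.5% (33.9 to 35.0) and 36.0% (35.7 to 36.4) in the 3 controls, against 30.3% (29.9 to 30.6), 32.9% (32.5 to 33.2) and 30.1% (29.8 to 30.5) in RNAi. The groups did not overlap, and the gap between the lowest control and the highest RNAi sample was small. The mean fell by 3.56 percentage points, from 34.6% ± 1.30 (SD, n = 3) to 31.1% ± 1.54 (SD, n = 3). ZC155.8 took 51.7% (51.3 to 52.1), 42.8% (42.3 to 43.4) and 46.6% (46.2 to 47.0) in the 3 controls, against 42.8% (42.5 to 43.2), 40.2% (39.8 to 40.6) and 40.6% (40.2 to 40.9) in RNAi. Control replicate 2 and RNAi replicate 1 differed by less than counting error, so the separation of the groups for this copy rests on no measurable gap. Controls averaged 47.0% ± 4.43 (SD, n = 3) and RNAi samples 41.2% ± 1.43 (SD, n = 3), a difference of -5.82 percentage points. It was -3.50 without control replicate 1 and -7.92 without control replicate 2. For each of these copies the exact permutation p was again 0.10 (0.17 adjusted), and the 3 shares are not independent since they add up to the whole.

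**Figure D4:**
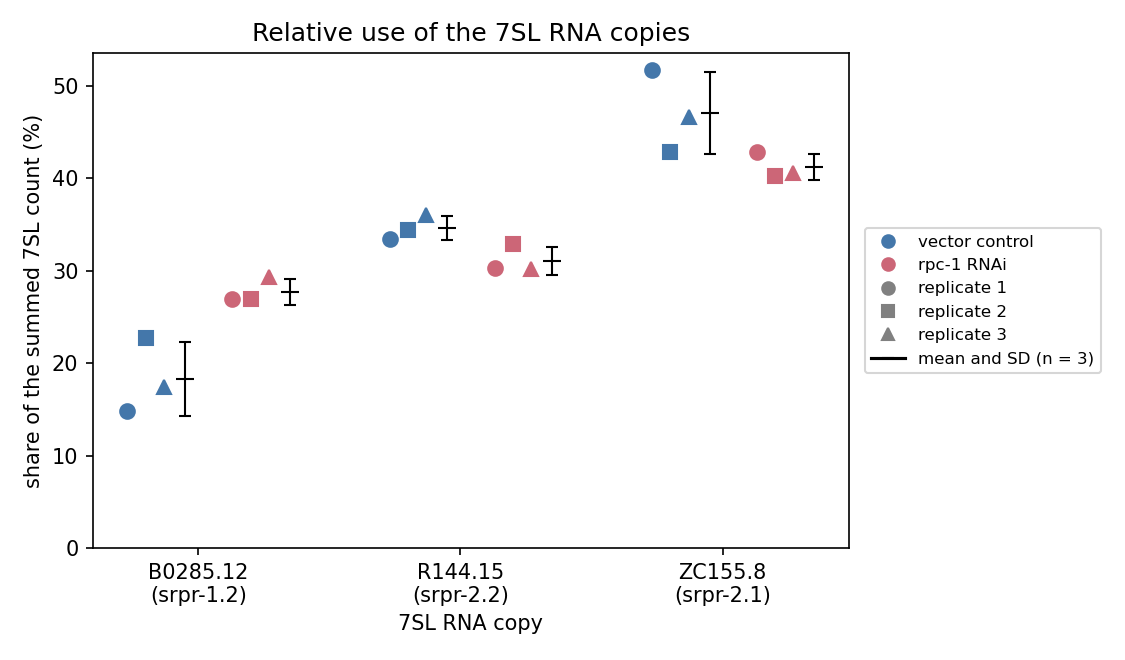
Share of each copy in the summed 7SL count of its sample (vertical axis, %) for the 3 copies (horizontal axis); points are the 3 vector control and 3 *rpc-1* RNAi samples, shapes are replicate numbers, and bars are the mean and SD. The RNAi samples of B0285.12 lie between 26.9% and 29.3%, above the controls at 14.9% to 22.7%, while for ZC155.8 the lowest control and the highest RNAi sample are level at 42.8%.

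Non-overlapping groups were common in this table. When the count of every transcript with a mean normalised count of at least 10 was divided by the summed 7SL count of its sample, 20.8% of 817 transcripts had groups that did not overlap. RNAi was higher without overlap for 10.5% and lower without overlap for 10.3%. The separation of the copies by their shares has to be read against that background. It is only a rough comparison, since a copy is part of its own denominator and other transcripts are not.

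Put as a ratio to the *srpr-2* pair, the share of B0285.12 gives the same ranking of samples, so this ratio restates the share and was given no test of its own. B0285.12 had 0.175, 0.294 and 0.211 counts per count of R144.15 and ZC155.8 together in vector control replicates 1, 2 and 3, and 0.368, 0.369 and 0.414 in RNAi. Against same-numbered controls RNAi was 2.11, 1.25 and 1.97 times as high. This ratio averaged 0.226 ± 0.0610 (SD, n = 3) for controls and 0.384 ± 0.0266 (SD, n = 3) for RNAi.

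The ratio within the pair is a further quantity. Like the ratio to the pair it was chosen after the shares were seen, and whether the ratios differ from each other was not tested. R144.15 had 0.647, 0.804 and 0.774 counts per count of ZC155.8 in controls and 0.706, 0.817 and 0.743 in RNAi. These values overlapped, with means of 0.742 ± 0.0832 (SD, n = 3) and 0.755 ± 0.0565 (SD, n = 3), and the difference of 0.0137 was smaller than either SD (exact permutation p 0.90, adjusted 0.90). Over the 6 samples the log2 normalised counts of R144.15 and ZC155.8 had a Pearson correlation of 0.90. The correlation of B0285.12 was 0.19 with R144.15 and 0.056 with ZC155.8. The points of these correlations share libraries and size factors, and the correlations are descriptions only. The part that the division of reads by Salmon had in the ratios was not tested.

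From the stable Pol III RNAs outside the tRNAs, 8 transcripts picked by gene name gave the nearest comparison. These were the 5 copies of 5S rRNA and the RNase P, RNase MRP and Y RNAs. Other Pol III products, such as snoRNAs that the study lists among them, were not included. DESeq2 gave a p to 7 of the 8, of which 4 had a positive and 3 a negative log2 fold change. None was past 10% FDR in that fit, with 1 at an unadjusted p under 0.05, nor in edgeR, where 8 were tested with 1 under 0.05. In other fits some were past it as higher, given here with the share of all tested transcripts past it as higher. There were 2 without vector control replicate 2 (5.19%). It was 1 each with total-count size factors (6.69%) and with nuclear tRNAs, 7SL RNA and these 8 kept out of the size factors (5.81%). It was also 1 each with a minimum mean count of 10 (5.48%) and without *rpc-1* RNAi replicate 1 (6.14%). In edgeR with the replicate number as a block it was 1 (8.29%). With that block, DESeq2 put 2 of 8 past it as higher and 1 as lower, and the 7SL copies stayed at 0 of 3, where 29.0% of 959 transcripts were past it.

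Relative to RNase P RNA, 7SL RNA had 5.14 to 8.98 counts per count in controls and 5.85 to 12.0 in RNAi, with overlap. Relative to RNase MRP RNA it had 10.5 to 30.4 in controls and 7.11 to 35.7 in RNAi. In both groups replicate 1 was the highest for either ratio. Relative to Y RNA it had 5.67, 12.0 and 5.85 counts per count in controls and 13.3, 13.8 and 9.82 in RNAi, higher than the same-numbered control for each of the 3 numbers, but with overlap between the groups. Relative to the summed 5S rRNA it had 0.0112, 0.0108 and 0.00986 counts per count in controls and 0.0106, 0.00761 and 0.0102 in RNAi, lower than the same-numbered control for numbers 1 and 2 and higher for number 3, with overlap. No p is given for these 4 ratios, which were not among the quantities tested.

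Among 365 other transcripts with a mean normalised count of at least 1000, the level most like that of summed 7SL RNA over the 6 samples was that of the snoRNA ZK265.10, with a Pearson correlation of 0.95 on the log2 scale. It had 11164, 15587 and 8962 normalised counts in controls and 15169, 7334 and 10742 in RNAi. As for 7SL RNA, control replicate 2 and RNAi replicate 1 were high and RNAi replicate 2 was the lowest. The mitochondrial tRNA MTCE.32 (0.86) and the nuclear tRNA K06G5.t1 (0.79) followed. These are the highest of 365 correlations over 6 points, and the points share size factors with 7SL RNA.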

How the data were processed

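Short RNA of 6 whole-worm samples was sequenced as paired reads. The authors trimmed reads with Cutadapt, checked them with FastQC, assigned them with Salmon to an all-RNA WBcel235 index with the genome as decoy, and imported transcripts under 300 bases with tximport. The deposited values are estimated counts per transcript, all whole numbers, so rounding changed none. Of 2526 transcripts, 2506 matched the Ensembl release 115 annotation of WBcel235. No transcript was 0 in all samples. The authors' DESeq2 results were not used.

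Replicate numbers and the group names wt and rpc came from sample titles. That these were vector control and *rpc-1* RNAi worms was taken from the study. All transcripts were fitted with DESeq2 1.42.0 (R 4.3.3) and its Wald test, with the group as the only term, median-of-ratios size factors and Benjamini-Hochberg adjusted p under 0.10. edgeR 4.0.16, other size factors, count filters, 5% FDR, a replicate block and leaving out each sample were alternatives. Both tools were tested on simulated counts. Shares and ratios were compared by exact permutation of the 6 labels (20 labelings) in Python 3.11.15. Correlations used log2(normalised count + 1). The transcripts named are the 3 copies, the 3 most correlated with their sum, and annotated 7SL genes. The members, lists and tests were chosen with earlier results of these data known.

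Same-numbered samples deviated together from their group means, with correlations of 0.55, 0.20 and 0.40 for numbers 1, 2 and 3 over 817 transcripts. Differently numbered samples gave -0.41 to 0.14. The highest of these, control replicate 3 with RNAi replicate 2, was near the value for number 2, where the pairing was least clear. Deviations within a group sum to 0, so positive values for same numbers push the others below 0 on balance. The contrast between them is therefore partly fixed by arithmetic. The numbers were taken to pair the samples in the replicate-block fits and the sign-flip tests. The main fits and the permutation tests did not use the pairing. This pairing comes from the titles and the data, since no label says what a number shares. No 2 samples of a group agreed within sampling noise. Sequences of the copies are not printed, because no genome sequence was used here.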

Additional observations from a re-analysis of the deposited data

How the results depend on the processing

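No 7SL copy passed 10% FDR in any of the 13 alternative fits, in DESeq2 or edgeR, and 0 of 3 had an unadjusted p under 0.05 in each. The log2 fold changes kept their direction, from 0.33 to 0.81 for B0285.12, from -0.39 to -0.074 for R144.15 and from -0.46 to -0.091 for ZC155.8. With the replicate block they were 0.53, -0.25 and -0.28, and -0.093 for the sum, and the block changed no call. The 95% intervals with the block ran from 0.810-fold to 2.58-fold for B0285.12 and from 0.569-fold to 1.24-fold for R144.15. For ZC155.8 the interval ran from 0.568-fold to 1.19-fold. The sum was at 0.090 with total-count size factors, and at -0.25 to 0.069 when single samples were left out. It was above 0 without vector control replicate 2 (0.029) and without *rpc-1* RNAi replicate 2 (0.069). Total-count size factors also shifted the median over tested transcripts averaging 10 or more from -0.047 to 0.13.

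The higher summed 7SL share (0.0218 percentage points) became 0.107 with rRNAs and -0.00262 with tRNAs left out of the denominator, -2946 normalised counts with size factors, and -0.00644 to 0.0579 percentage points when single samples were left out, the lowest without *rpc-1* RNAi replicate 1. Shares of the single copies kept their direction. They differed by 7.66 to 11.6, -4.45 to -2.87 and -7.92 to -3.50 percentage points for B0285.12, R144.15 and ZC155.8 when single samples were left out. With the replicate block the exact sign-flip p of each was 0.25, the smallest that 3 pairs allow. The added ratio of B0285.12 to the *srpr-2* pair, another form of its share, differed by 0.79 on the log2 scale, and by 0.62 to 0.998 when single samples were left out. The added ratio of R144.15 to ZC155.8 differed by 0.030, and by -0.065 to 0.092 when single samples were left out, below 0 without vector control replicate 1 or *rpc-1* RNAi replicate 2. The cause was not tested.

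Over all transcripts, 79 calls (45 lower, 34 higher) became 128 (59 lower, 69 higher) with total-count size factors, 127 when Pol III products were kept out of the size factors, 278 in DESeq2 and 147 in edgeR when the replicate block was added, and 74 to 180 when single samples were left out. The Wilson interval of each share covers counting error only, not PCR duplicates or the division of reads among the copies. It was narrower than the SD between the replicates of its group.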
